A study of Mus musculus with 10 samples.

Results

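The AP-1 genes examined here are *Jun*, *Junb* and *Jund* of the Jun family, *Fos*, *Fosb*, *Fosl1* and *Fosl2* of the Fos family, and *Atf3*, *Batf* and *Maff*, whose products pair with them or bind related sites. Accessible chromatin at these 10 genes, of 21832 protein-coding genes in all, was read from ATAC-seq peak lists as every peak whose summit lay inside a gene or within 50 kb of it on mm10. The rule found 1794 of 1071660 summits, 170 to 255 in each library, which merged into 268 of 184764 regions reaching 250 bases to each side of a summit. Of these, 16 lay at a promoter of a member, defined as within 1 kb of a transcription start site, 49 at the promoter of another protein-coding gene, and 203 were distal. The regions were chosen by the positions of called peaks, so that a region was called in at least 1 library is no result. At the limit of the rule, the 10 outermost regions kept (45.7 kb or more from the gene) were called in 1 to 9 libraries with mean rank percentiles of 0.108 to 71.3. The 10 nearest regions left out (up to 54.5 kb) were called in 2 to 9 libraries, with means of 4.86 to 82.6. At the promoter limit, a *Fosb* region 970 bases from a start site counted as promoter (mean percentile 81.1), and a *Jun* region at 1068 bases (80.2) and a *Jund* region at 1021 bases (43.6) counted as distal.

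The samples came from embryonic hearts of mice carrying Wt1CreERT2/+ and Rosa26tdTomato, in which tamoxifen given at E9.5 marked *Wt1*-expressing cells and their descendants with tdTomato. One *Wt1* allele carries the CreERT2 in every group, and cells that did not express *Wt1* when recombination took place are not marked. Epicardial cells, the mesothelial layer covering the heart, were sorted as CD31-tdTomato+PDPN+ at E11.5 (3 libraries) and E17.5 (3 libraries). Epicardium-derived cells (EPDCs), the mesenchymal progeny, were sorted as CD31-tdTomato+PDPN- at E12.5 (1 library) and E13.5 (2 libraries, of which 1 list serves a pair of technical replicates). Hearts of littermates were pooled: 6 per sample at E11.5, 4 at E17.5 and, by the sample records, 4 to 13 at E13.5, where the study's methods give a narrower range. No untreated or sham group belongs to the design, and the comparisons were the earlier against the later epicardium and EPDCs against each.

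AP-1 is a dimer of basic leucine zipper (bZIP) proteins. A Jun protein pairs with a Fos protein, or with another Jun protein, and binds the 7-base site TGANTCA, where N is G or C. Jun and Fos genes are classic immediate early genes: serum, growth factors, stress and tissue dissociation induce several of them within minutes through MAP kinases, serum response factor and CREB/ATF proteins that are already in the cell. AP-1 is known for opening enhancers together with lineage factors, and in epithelia several members act in migration and in wound responses.

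The 10 stretches of the mouse genome that carry most of the results below are shown first. Coordinates are of mm10 (GRCm38). Distances are counted from the annotated start with the highest mean percentile, which for *Fosb* is the internal one at chr7:19309600. The distal stretches are the plus strand, up to 300 bases at the region's centre or at its motif, and the promoters, from RefSeq on GRCm38.p6, run 5′ to 3′ along the gene from 250 bases before its start to 50 after. Capitals mark an AP-1 site (TGAGTCA or TGACTCA), a cyclic AMP response element (TGACGTCA, the site of CREB and ATF dimers) or a serum response element, each searched on both strands as exact letters. The first 4 regions were called more strongly or more often at E17.5 than in the other groups and hold an AP-1 site.
*Atf3* −10.6 kb, intron of *Atf3*, chr1:191193780-191193980: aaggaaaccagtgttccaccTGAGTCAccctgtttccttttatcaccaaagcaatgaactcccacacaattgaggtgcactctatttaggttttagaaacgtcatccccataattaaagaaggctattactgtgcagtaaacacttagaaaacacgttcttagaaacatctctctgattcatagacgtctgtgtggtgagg
*Fosb* −7.39 kb, intergenic, chr7:19316761-19317060: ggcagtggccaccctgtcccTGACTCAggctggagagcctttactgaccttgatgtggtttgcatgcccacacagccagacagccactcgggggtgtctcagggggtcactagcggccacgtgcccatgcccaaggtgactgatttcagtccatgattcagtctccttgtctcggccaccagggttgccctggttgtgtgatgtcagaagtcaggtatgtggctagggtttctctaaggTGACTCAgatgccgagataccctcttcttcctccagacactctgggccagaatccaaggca
*Fosl1* upstream, intergenic, chr19:5429933-5430133: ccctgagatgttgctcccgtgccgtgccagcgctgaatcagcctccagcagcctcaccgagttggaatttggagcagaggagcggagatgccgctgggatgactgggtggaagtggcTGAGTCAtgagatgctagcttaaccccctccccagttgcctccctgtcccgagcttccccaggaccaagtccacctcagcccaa
*Jund* −19.3 kb, intergenic, chr8:70679505-70679705: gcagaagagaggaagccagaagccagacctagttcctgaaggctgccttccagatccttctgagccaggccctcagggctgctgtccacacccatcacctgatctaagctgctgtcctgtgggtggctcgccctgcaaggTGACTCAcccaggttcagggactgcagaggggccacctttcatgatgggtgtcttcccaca
The next pair also holds AP-1 sites but followed other patterns: the *Atf3* region was low at E17.5, and the *Fos* region was low in EPDCs.
*Atf3* +28.9 kb, intergenic, chr1:191154373-191154573: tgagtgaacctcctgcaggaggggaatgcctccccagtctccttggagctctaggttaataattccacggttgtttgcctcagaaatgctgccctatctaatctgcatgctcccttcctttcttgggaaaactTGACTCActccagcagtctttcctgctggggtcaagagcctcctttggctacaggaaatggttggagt
*Fos* +45.9 kb, intergenic, chr12:85519650-85519850: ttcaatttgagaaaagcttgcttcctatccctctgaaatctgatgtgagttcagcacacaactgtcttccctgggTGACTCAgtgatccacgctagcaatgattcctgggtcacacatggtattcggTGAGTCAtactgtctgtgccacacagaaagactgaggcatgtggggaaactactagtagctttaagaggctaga
The following pair holds a serum response element with the same 10 letters, one in a region that was high in EPDCs and one past the end of the coding transcript of *Junb*, within the annotated gene.
*Fosl2* +28.0 kb, intergenic, chr5:32163722-32163922: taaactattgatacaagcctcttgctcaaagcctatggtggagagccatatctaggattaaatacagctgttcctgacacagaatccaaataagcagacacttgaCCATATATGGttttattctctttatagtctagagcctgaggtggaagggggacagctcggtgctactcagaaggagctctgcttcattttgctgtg
*Junb* +2.09 kb, chr8:84976524-84976724: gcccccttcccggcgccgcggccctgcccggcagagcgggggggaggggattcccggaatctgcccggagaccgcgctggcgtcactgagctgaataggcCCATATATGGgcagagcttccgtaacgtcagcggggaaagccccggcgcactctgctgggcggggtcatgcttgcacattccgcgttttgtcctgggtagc
Last are the *Junb* promoter, which differed between groups and holds none of the motifs searched in these 300 bases, and the *Maff* promoter with a cyclic AMP response element, which ranked near the top of every library.
*Junb* promoter, minus strand, chr8:84978699-84978998: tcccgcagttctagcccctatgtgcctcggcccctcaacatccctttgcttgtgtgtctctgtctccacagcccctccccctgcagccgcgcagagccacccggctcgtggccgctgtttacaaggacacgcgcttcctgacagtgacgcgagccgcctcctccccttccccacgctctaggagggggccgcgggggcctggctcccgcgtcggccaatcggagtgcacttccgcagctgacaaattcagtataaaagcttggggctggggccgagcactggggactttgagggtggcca
*Maff* promoter, plus strand, chr15:79347270-79347569: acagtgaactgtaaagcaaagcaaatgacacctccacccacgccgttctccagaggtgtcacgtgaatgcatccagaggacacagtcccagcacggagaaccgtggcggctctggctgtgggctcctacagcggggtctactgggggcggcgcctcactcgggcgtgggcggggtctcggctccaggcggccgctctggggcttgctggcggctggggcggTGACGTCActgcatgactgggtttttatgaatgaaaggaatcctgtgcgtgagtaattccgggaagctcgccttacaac

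The deposited lists hold 94909 to 142743 summits per library on chromosomes 1 to 19, X and Y. Read totals are not in these lists, but the fold enrichment and −log10 p of a summit together give the number of fragments piled up there, and the genome background came to 2.07 to 4.26 fragments in 8 libraries and 10.9 in E13.5 EPDC sample 2, the deepest. The EPDC lists differ from the epicardial ones in more than the cells: they hold 252 to 268 summits on other contigs against 0, their strongest summits reach a −log10 p of 20589.5 to 70107.4, where the epicardial lists stop at 891.341, and 268 promoters stood at or above percentile 80 in every EPDC list while called in no epicardial list, against 0 the other way. None of those 268 promoters is a member's, and none of the 586 regions of the same kind lies at a member. Embryonic day differs as well, since the EPDC libraries are of E12.5 and E13.5 and the epicardial ones of E11.5 and E17.5. How the lists were made, which cells were sorted and the embryonic day cannot be told apart in a comparison with EPDCs. At promoters of epicardial markers, 6 to 8 of 8 were called in every library, with the mean percentile at 75.4 to 79.1 in E11.5 epicardium, 88.6 to 92.1 in E17.5 epicardium and 58.7 to 66.7 in EPDCs. *Msln*, a mesothelial surface protein gene, was called at E17.5 only. All 6 mesenchymal markers were called in every library, 1 to 2 of 5 endothelial, 2 to 4 of 5 cardiomyocyte (*Myh6* in none) and 0 to 1 of 5 blood markers, and the part of other cells in the results below was not tested.

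Accessibility is given on a pair of scales. The rank percentile places the strongest summit of a feature among all summits of its own library by −log10 p (100 is the strongest, 0 means that no summit was called, which does not show closed chromatin). The normalized score divides the −log10 p by the library's sum of −log10 p, times 1000000, as the study's methods do when merging peak sets. The study's own comparisons of accessibility used read counts in windows with edgeR, and these lists hold no reads. Differences between groups are of log2(normalized score + 1). They were tested with limma's moderated test on all 15513 promoters or 108007 distal regions called in at least 3 of 9 libraries, with Benjamini-Hochberg adjustment over all of them. On this scale the median promoter differed by 0.20 between E17.5 and E11.5 epicardium, 0.14 between EPDCs and E11.5 and −0.03 between EPDCs and E17.5, and the median distal region by −0.36, −0.43 and 0.00. A call that was lost once each library was centred on the median of features called in all libraries is named as such. In sorted bulk cells, a lower score from fewer cells with an open site and one from less opening per cell cannot be told apart.

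All 10 member promoters were called in all 9 libraries, and 7 of them stood at percentile 83.0 or higher throughout. Highest were *Maff*, *Fosl2*, *Jun*, *Jund* and *Atf3*, with group means of 94.0 to 97.9, followed by *Fos* at 92.6 to 93.6 and *Fosb* at 86.8 to 88.3. *Batf*, *Junb* and *Fosl1* were the lowest at E11.5, at 78.7, 78.4 and 77.4, and *Junb* and *Fosl1* passed *Fosb* at E17.5, at 92.8 and 89.3. *Jun* and *Jund* overlapped in every group, and *Maff* and *Fosl2* overlapped in all but E17.5 epicardium, where *Maff* lay above. A gene with several annotated starts, such as *Maff* with 5, was read over a wider window.

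**Figure D1:**
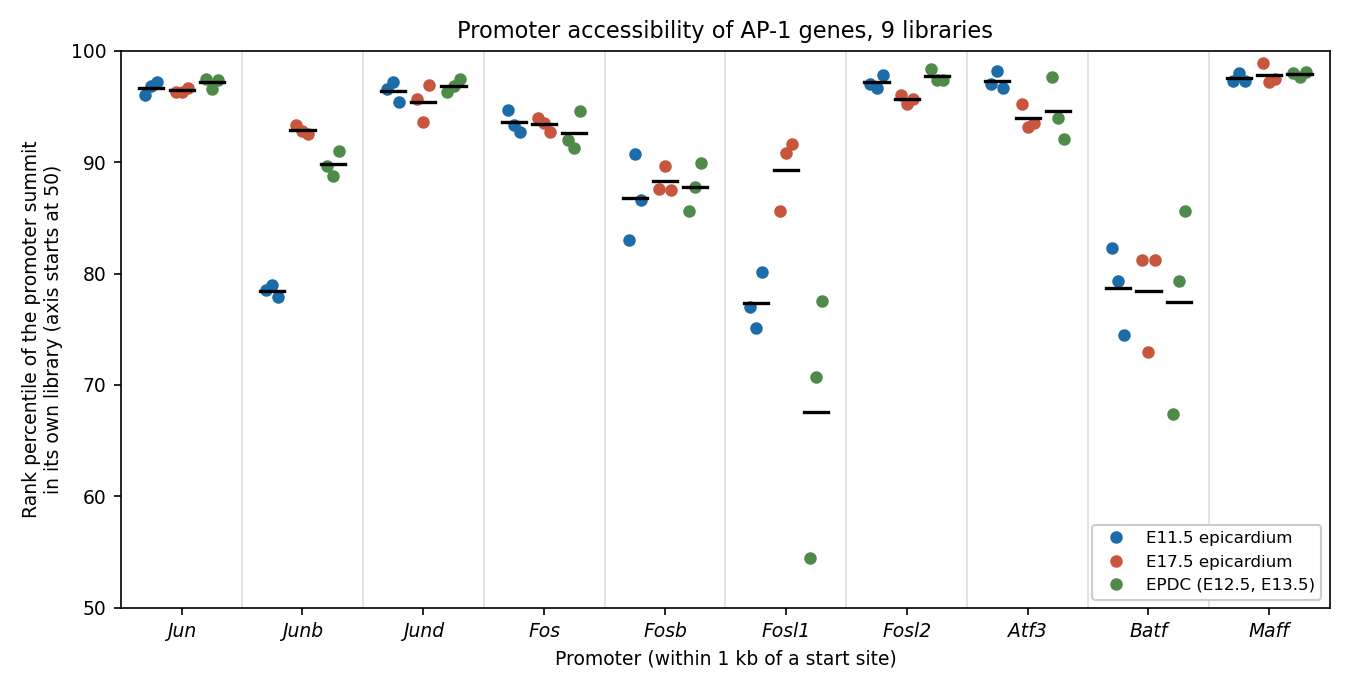
Rank percentile of the promoter summit of each AP-1 gene (y axis, percent, starting at 50) in the 9 libraries, with points for libraries, coloured by group, and bars for group means. *Junb* at E11.5 lies at 77.9 to 79.0, below all its other libraries (88.8 to 93.3), and *Fosl1* is highest at E17.5 (85.6 to 91.6), while most other promoters stay within a few points.

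Among the Jun family, *Junb* was the promoter that changed most consistently. *Junb* encodes a Jun protein that often restrains growth-promoting Jun dimers. Its promoter stood at percentiles 78.5, 79.0 and 77.9 in E11.5 epicardium, 93.3, 92.8 and 92.5 in E17.5 epicardium, and 89.7, 88.8 and 91.0 in EPDCs. No E11.5 library overlapped any of the other 6. The pileup at the summit was 200, 211 and 174 fragments at E11.5, 332, 503 and 485 at E17.5, and 284, 369 and 944 in EPDCs, with fold enrichments over local background of 3.76 to 4.05, 5.06 to 5.89 and 5.06 to 7.13. The normalized score was higher by 1.52 (SE 0.14, log2) at E17.5 than at E11.5 (limma, adjusted p = 1.1e-05) and by 1.13 (SE 0.14) in EPDCs than at E11.5 (adjusted p = 6.4e-05). Between EPDCs and E17.5 epicardium the difference was −0.39 (SE 0.14) and missed the threshold (adjusted p = 0.0513), although the libraries did not overlap.

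*Jun* and *Jund* encode the other Jun proteins, and both promoters ranked near the top everywhere. *Jun* stood at 96.0, 96.8 and 97.2 at E11.5, 96.3, 96.3 and 96.7 at E17.5, and 97.5, 96.6 and 97.4 in EPDCs. Its score was higher in EPDCs than at E11.5 by 0.41 (SE 0.13, limma adjusted p = 0.0301), a call lost on centring (adjusted p = 0.118) and on the percentile scale (0.489), and 12 of 17 alternatives kept it, with adjusted p from 0.0197 to 0.489. *Jund* stood at 96.6, 97.2 and 95.4, then 95.7, 93.6 and 96.9, then 96.3, 96.8 and 97.5, and passed in no comparison (adjusted p 0.103 to 0.442). These percentiles belong to the GENCODE start of *Jund* at chr8:70698949. Around the RefSeq start at chr8:70697739, summits were called in 5 of 9 libraries, at percentiles from 17.6 to 92.9.

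*Fosl1*, which encodes FRA-1, a Fos protein without a transactivation domain of its own and active in migrating and mesenchymal-like epithelial cells, varied most of all member promoters. It stood at percentiles 77.0, 75.1 and 80.1 at E11.5, 85.6, 90.8 and 91.6 at E17.5, and 54.5, 70.7 and 77.5 in EPDCs. The E17.5 libraries lay above all others, and the EPDC libraries overlapped those of E11.5. The pileup was 95, 91 and 90 fragments at E11.5, 123, 253 and 256 at E17.5, and 42, 83 and 222 in EPDCs. The score was higher by 1.20 (SE 0.24) at E17.5 than at E11.5 (limma, adjusted p = 0.00271) and lower by a log2 difference of −1.60 (SE 0.24) in EPDCs than at E17.5 (adjusted p = 0.000199), while EPDCs against E11.5 gave −0.40 (SE 0.24, adjusted p = 0.233). The call between stages held in 18 of 19 alternatives and was lost on the percentile scale (adjusted p = 0.154, the highest, against 1.17e-05 at the lowest). Over the 9 libraries, the promoters with scores most like it were those of *Tex15*, *Psmb8* and *Slc36a1* (Pearson r = 0.986, 0.986 and 0.985, of 15512 promoters compared), a description over libraries that share their groups.

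*Fosb* and *Fosl2* passed the test weakly. *Fosb*, an immediate early gene, stood at 83.0, 90.7 and 86.6 at E11.5, 87.6, 89.7 and 87.5 at E17.5, and 85.6, 87.8 and 89.9 in EPDCs, so its percentiles overlapped in all groups. Its score was higher by 0.41 (SE 0.15) at E17.5 than at E11.5 (limma, adjusted p = 0.0473), which only 5 of 19 alternatives kept (adjusted p from 0.00984 to 0.711, and 0.442 on centring). *Fosl2*, which encodes FRA-2, stood at 97.0, 96.7 and 97.8, then 96.0, 95.2 and 95.7, then 98.4, 97.4 and 97.4. Its score was higher by 0.47 (SE 0.16) in EPDCs than at E11.5 (adjusted p = 0.0456), a call kept by 7 of 17 alternatives (adjusted p 0.0166 to 0.408) and lost on centring (0.146). Between stages its log2 difference was 0.07 (adjusted p = 0.771), but on the percentile scale E17.5 was lower, by −1.54 points (limma, adjusted p = 0.0442). *Fos*, the prototype of the family, stood at 94.7, 93.3 and 92.7, then 94.0, 93.5 and 92.7, then 92.0, 91.3 and 94.6, and differed in no comparison beyond the spread (adjusted p 0.149 to 0.562).

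The *Fosb* promoter hides a pair of regions that moved apart, which were singled out after their values were seen. The region centred 0.317 kb from the nearest start, at chr7:19310118-19310618 and holding a serum response element, stood at 83.0, 86.4 and 80.9 at E11.5, 87.6, 89.7 and 87.5 at E17.5, and 76.6, 83.0 and 84.4 in EPDCs. The region at 0.97 kb, in an exon at chr7:19308380-19308880, stood at 86.7, 90.7 and 86.6, then 66.6, 63.7 and 72.0, then 85.6, 87.8 and 89.9. At E17.5 the upstream score was higher than at E11.5 by 0.68 (SE 0.16, limma adjusted p = 0.00728) and the downstream one lower, by a log2 difference of −1.08 (SE 0.19, adjusted p = 0.00141). Against E17.5, EPDCs differed the other way, by −0.64 (SE 0.16, adjusted p = 0.00851) upstream and 1.30 (SE 0.19, adjusted p = 0.000398) downstream. Regions inside *Atf3* and *Fosl1* moved like the downstream *Fosb* one: 0.746 kb into *Atf3* the percentile was 44.8, 65.2 and 55.8 at E11.5, then 0, 8.22 and 15.7 at E17.5, and 0.726 kb into *Fosl1* E11.5 gave 44.7, 35.1 and 21.1 and no E17.5 library had a call (limma adjusted p = 0.00262 and 0.000284). In EPDCs both were called in all 3 libraries, at 65.0, 67.6 and 75.8 and at 29.8, 34.2 and 41.5.

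Of the remaining members none passed a promoter test. *Atf3* encodes a stress-induced factor that pairs with Jun proteins, and it stood at 97.0, 98.2 and 96.7 at E11.5, 95.2, 93.2 and 93.5 at E17.5, and 97.6, 94.0 and 92.1 in EPDCs. The stages did not overlap in percentile, but the score differed by −0.18 (SE 0.23, limma adjusted p = 0.564). *Batf*, best known as a Jun partner in lymphocytes, stood at 82.3, 79.3 and 74.5, then 81.2, 73.0 and 81.2, then 67.4, 79.3 and 85.6 (adjusted p 0.566 to 0.809). *Maff*, a small Maf protein that binds DNA as a partner of NRF2, stood at 97.3, 98.0 and 97.3, then 98.9, 97.2 and 97.5, then 98.0, 97.6 and 98.1 (adjusted p 0.0713 to 0.982). No summit was called in any library at the upstream *Atf3* start at chr1:191218039, and the strongest of 3 *Atf3* starts is the one given.

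In total 3 of 10 member promoters were higher at E17.5 than at E11.5 (*Junb*, *Fosl1* and *Fosb*) and 0 lower, where 23.7% and 9.73% of all promoters tested were. In EPDCs against E11.5, 3 were higher (*Junb*, *Fosl2* and *Jun*) and 0 lower, beside 17.8% and 9.11%. In EPDCs against E17.5, 0 were higher and 1 was lower (*Fosl1*), beside 14.6% and 18.1%. With each library centred, 2 and 0 of the 10 (8.5% and 16.3% of all), 1 and 0 (11.0% and 2102 of 15513) and 1 and 1 (21.8% and 15.1%, the higher one being *Fosl2*) passed in the same order. On the percentile scale, 1 (*Junb*) was higher and 1 (*Fosl2*) lower at E17.5 than at E11.5. *Junb* against E11.5 in both comparisons and *Fosl1* between EPDCs and E17.5 passed in every limma alternative tried. An exact two-sided permutation test of 3 against 3 libraries on the percentiles cannot go below p = 0.1 and called 0 of 10 in any comparison. At an unadjusted limma p under 0.05, 5 member promoters were higher and 0 lower at E17.5 than at E11.5, 6 and 0 in EPDCs than at E11.5, and 1 and 2 in EPDCs than at E17.5. Of all 15513 promoters, 33.0% and 12.1%, 27.7% and 1945 promoters, and 18.9% and 23.8% did so in the same order.

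Of the 203 distal regions, 156 were called in at least 3 libraries and tested. At E17.5, 48 of these (30.8%) were higher than at E11.5 and 31 (19.9%) were lower, where 16.4% of all distal regions tested were higher and 33.7% lower. The median log2 difference of the 156 was 0.21, against −0.36 over all. After centring, 57 (36.5%) were higher and 25 (16.0%) lower, beside 19.4% and 30.1%. The counts depended on the libraries and the scale, and so did those over all distal regions. On the percentile scale 38 (24.4%) were higher and 34 (21.8%) lower, beside 12949 of 108007 and 33.3%. Without E17.5 replicate 1, 35 of 141 were higher and 27 lower (beside 11.3% and 33.1%), without replicate 2, 31 and 28 of 138 (10.7% and 34.6%), and without replicate 3, 31 and 27 of 137 (10.4% and 33.0%). Of the 48 higher regions, 22 were called in fewer than 3 libraries outside E17.5 and so were tested only through the group in which they were high, as were 4 of the 31 lower ones through E11.5, which leaves 26 and 27. Over all distal regions the same held for 8854 of 17703 and 14525 of 36354. For a named region of this kind the values are given without a p. *Fos* and *Atf3* each had 9 of 22 tested regions higher and 3 lower, *Fosb* 6 and 2 of 17, *Maff* 6 and 3 of 17, *Jund* 5 and 6 of 16, and *Junb*, whose promoter rose, 1 and 4 of 10. Many of these regions are nearer to other genes than to the member, and neighbouring regions are not independent.

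**Figure D2:**
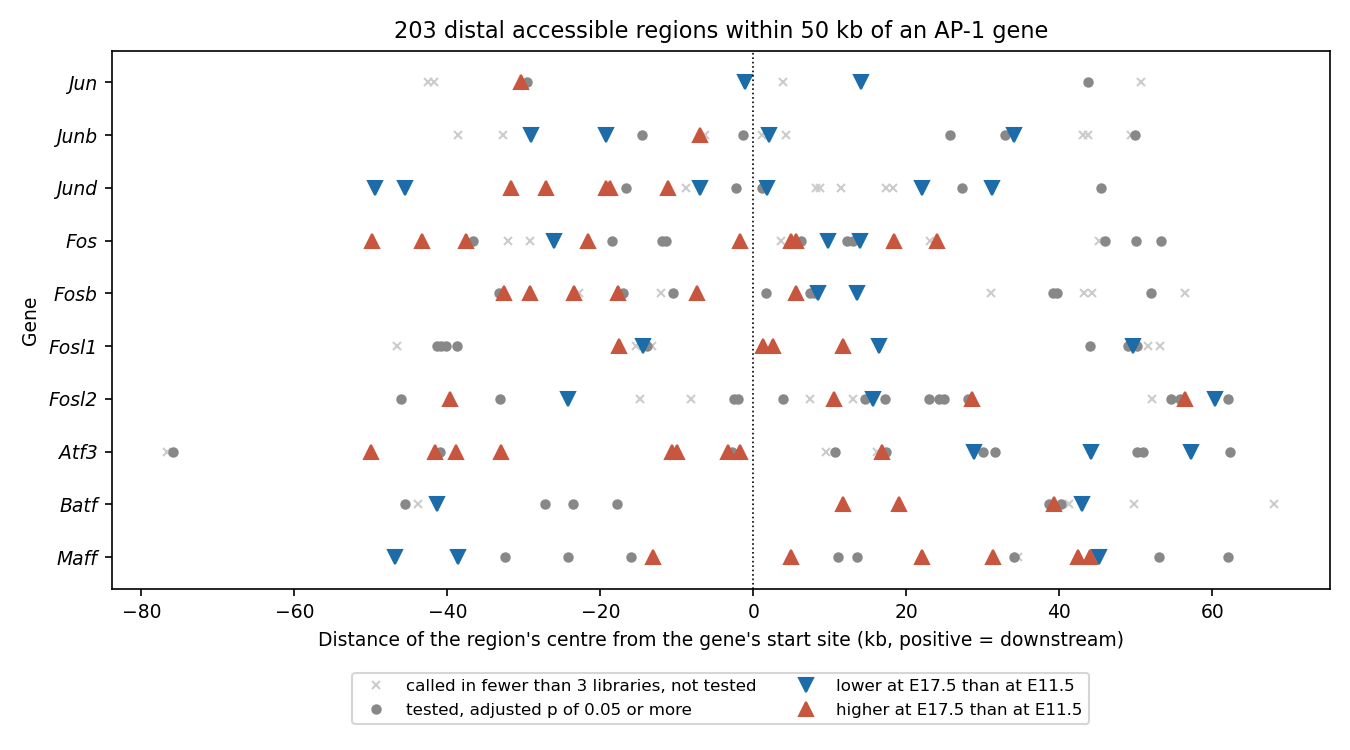
Distance of each of the 203 distal regions from the start of its AP-1 gene (x axis, kb, positive is downstream) for the 10 genes (rows), with triangles for regions higher (red) or lower (blue) at E17.5 than at E11.5 (limma, adjusted p under 0.05), dots for other tested regions and crosses for those called in fewer than 3 libraries. Higher regions are 48 of 156 tested (30.8%, beside 16.4% of all distal regions) and lower ones 31 (19.9%, beside 33.7%). Of the 48 and the 31, 22 and 4 were tested only through the group where they were high. *Fos* and *Atf3* have the most higher regions, with 9 of 22 tested each.

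In EPDCs, higher scores than at E17.5 were found in 29 of the 156 regions (18.6%) and lower scores in 63 (40.4%), beside 26.4% and 25.9% of all distal regions, with a median of −0.36 against 0.00. Centring gave 30 (19.2%) and 63 (40.4%), beside 26.5% and 26.3%. The count of lower regions was 49 on the percentile scale (beside 20.8% of all) and 40 of 138 without E17.5 replicate 2 (beside 20.7%). Of the 63 lower regions, 22 were tested only through E17.5, and 7 of the 29 higher ones only through EPDCs. Over all distal regions this held for 9033 of 28006 and 9055 of 28460. Against E11.5, 14 (8.97%) were higher and 38 (24.4%) lower, beside 16.0% and 35.4%, and 21 and 35 (22.4%) after centring, beside 18.4% and 31.1%. Of the 14 and the 38, 5 and 4 were tested only through the group where they were high, beside 8182 of 17232 and 14428 of 38266 over all. The 14 higher ones became 22 without the E12.5 EPDC sample (beside 14.2% of all), 7 without E13.5 EPDC sample 1 (9.13%), and 9 without E13.5 EPDC sample 2 (9.76%) or without E11.5 replicate 2 (15.8%). The median there was −0.09 against −0.43. The comparisons share libraries, so the counts against E17.5 are not a separate observation of the change between stages.

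Read by presence, 59 of the 203 distal regions (29.1%) were called in all 9 libraries, beside 19.3% of all distal regions. Called in every E17.5 library and in no other were 14 (6.9%, beside 3.21%), in every E11.5 library and no other 1 (0.493%, beside 4.24%), and in every EPDC library and no other 3 (1.48%, beside 3.39%). In all 6 epicardial libraries and no EPDC library 8 were called (3.94%, beside 2.29%). The 1 region restricted to E11.5 epicardium lies in an intron of *Pla2g6*, 38.6 kb upstream of *Maff*, and stood at 56.1, 64.5 and 54.8.

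The regions with the largest differences, and the strongest region of each locus, are given next by family. At *Jund*, 4 distal regions were called in the 3 E17.5 libraries and in no other, and 3 of them are among the largest differences: at −27.1 kb with percentiles of 76.0, 84.6 and 70.3, at −19.3 kb with 59.0, 70.3 and 65.5, and at −18.7 kb with 42.7, 68.8 and 62.9. The one not among them, at −31.7 kb, stood between 33.1 and 62.6. The nearest coding start of all 4 is that of *Lsm4*, and the −19.3 kb region holds the TGACTCA printed above. Another, at −11.1 kb, stood at 59.9, 74.7 and 66.0 at E17.5 and was called in no E11.5 library and, at 24.2 and 45.1, in both E13.5 EPDC libraries. No fold is given against groups without a call. The strongest region of the locus, at −16.6 kb with an AP-1 site, was called everywhere: 97.7, 99.0 and 98.4 at E11.5, 97.1, 97.6 and 96.7 at E17.5, and 94.4, 94.1 and 94.0 in EPDCs. Its EPDC score differed by −0.46 from E11.5 (SE 0.10, adjusted p = 0.00512, and 0.0923 on centring) and by −0.51 from E17.5 (SE 0.10, adjusted p = 0.00256).

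At *Junb*, the region 2.09 kb downstream of the start, 286 bases past the end of the coding transcript and holding the serum response element, ran against the promoter. It stood at 91.4, 94.6 and 96.8 at E11.5, 87.3, 86.6 and 83.4 at E17.5, and 92.2, 88.6 and 89.8 in EPDCs. The score at E17.5 differed from E11.5 by −0.61 (SE 0.19, limma adjusted p = 0.0239), kept by 14 of 18 alternatives (0.00317 to 0.133, the last on centring). A region at −14.5 kb in *Hook2* stood at 42.3, 52.8 and 57.3 at E11.5, at 0, 47.9 and 46.5 at E17.5, and was called in no EPDC library. At *Jun*, the strongest region lies 1.07 kb upstream, 50 bases from the start of the antisense gene *Junos*, and stood at 81.8, 83.4 and 83.8, then 69.6, 74.0 and 72.8, then 84.5, 84.8 and 87.1. Its E17.5 libraries were the lowest, and EPDCs exceeded them by 0.84 (SE 0.10, adjusted p = 0.000162), which fell to 0.12 (adjusted p = 0.43) when any overlapping peak interval was counted in place of a summit. The difference of −0.44 (SE 0.10, adjusted p = 0.00774) between stages was lost on centring (−0.25, adjusted p = 0.0775) and turned to 0.29 under the same rule.

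At *Fosl1*, the region 17514 bases upstream had the largest difference between EPDCs and E17.5 of all 156 tested. It lies at chr19:5429783-5430283, 4876 bases from the nearest coding start, that of *AI837181*. Its percentiles were 39.0, 48.1 and 56.9 at E11.5, then 93.3, 95.3 and 93.3 at E17.5, and it was called in no EPDC library. The pileup was 70, 82 and 81 fragments at E11.5, then 260, 479 and 402 at E17.5. The score was higher at E17.5 by 2.99 (SE 0.16, limma adjusted p = 6.6e-06), and EPDCs passed as lower than both E11.5 (adjusted p = 2.1e-05) and E17.5 (2.51e-07). The strongest *Fosl1* region, at −40.8 kb and 36 bases from the start of the antisense gene *4930481A15Rik*, stood at 94.2, 93.1 and 93.3, then 93.5, 87.7 and 88.6, then 89.9, 87.8 and 92.6. All its EPDC percentiles lay below those of E11.5, but its score passed in no comparison (adjusted p 0.748 to 0.968).

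At *Fosb*, the region 7.39 kb upstream was hardly called outside E17.5. It was called at percentile 14.0 in 1 E11.5 library, at 65.0, 82.5 and 71.9 at E17.5, and in no EPDC library. The pileup was 36 fragments in that E11.5 library and 92, 220 and 159 at E17.5. The printed stretch holds 2 TGACTCA sites, the middle bases of which lie at −207 and 12 bases from the centre. The strongest *Fosb* region, at −10.5 kb in an exon of the long non-coding RNA *D830036C21Rik*, stood at 93.6 to 96.9 in all 9 libraries and passed in no comparison (adjusted p 0.0886 to 0.391), but was higher on centring at E17.5 and in EPDCs than at E11.5 (0.0468 and 0.0107).

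At *Fos*, 9 of 22 tested regions were higher and 3 lower at E17.5 than at E11.5, 1 and 7 in EPDCs than at E11.5, and 3 and 12 in EPDCs than at E17.5, beside 16.4% and 33.7%, 16.0% and 35.4%, and 26.4% and 25.9% of all distal regions. The region at −21.6 kb stood at 61.4, 67.8 and 67.1 at E11.5, then 68.2, 80.3 and 78.6 at E17.5, and no EPDC library called it (limma, adjusted p = 8.7e-06 and 1.59e-06). Its score at E17.5 was higher than at E11.5 by 0.76 (SE 0.17, adjusted p = 0.00588). The region at 45.9 kb downstream, with TGACTCA and TGAGTCA, stood at 44.9, 67.7 and 59.8, then 67.7, 81.7 and 68.9, and in EPDCs was called only in E13.5 sample 2, at 30.0 (adjusted p = 0.00098 and 9.6e-05). The region at 9.69 kb downstream stood at 47.8, 49.4 and 66.4, between 0.251 and 41.8 at E17.5, a log2 difference of −1.02 (SE 0.28, adjusted p = 0.0159), and was called in no EPDC library. Its stage call was kept by 14 of 18 alternatives (limma adjusted p 0.00689 to 0.061), among them 6 of 9 with 1 library left out. The strongest, at −18.5 kb, was among the top summits of every library (99.5, 99.4 and 99.0, then 98.4, 98.5 and 97.9, then 99.4, 99.4 and 99.3). Its EPDC score was higher than at E11.5 by 0.46 (SE 0.15, adjusted p = 0.032) and than at E17.5 by 0.48 (SE 0.15, adjusted p = 0.0256). The former call was kept by 11 of 16 alternatives and lost on the percentile scale (limma adjusted p = 0.936). The latter was kept by 12 of 16 (adjusted p 0.0109 to 0.0853).

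*Fosl2* held a region that was tested only through EPDCs, the group where it was high. Its place as the largest difference between EPDCs and E11.5 rests on libraries without a call. At 28.0 kb downstream of the *Fosl2* start, in chr5:32163572-32164072, no E11.5 library called a summit, the E17.5 libraries stood at 0, 6.1 and 9.94, and the EPDC libraries at 69.4, 84.3 and 85.3. The pileup was 31 fragments in each of the 2 E17.5 libraries that called it and 65, 155 and 350 in EPDCs. This region holds the CCATATATGG printed above and no AP-1 site over its whole length. At −46.1 kb the order was reversed, with 63.6, 60.7 and 70.7 at E11.5, 10.8, 60.7 and 47.2 at E17.5 and a call in E13.5 EPDC sample 2 only, at 34.9 (adjusted p = 0.00166 against E11.5). The strongest region, at 56.4 kb downstream, stood at 86.0, 89.0 and 86.3, then 86.6, 93.6 and 89.6, then 77.2, 84.1 and 86.6. Its score was higher at E17.5 than at E11.5 by 0.59 (SE 0.17, adjusted p = 0.0215), and EPDCs differed from E17.5 by −0.72 (SE 0.17, adjusted p = 0.00727). The stage call was kept by 14 of 18 alternatives and lost on the percentile scale (limma adjusted p = 0.427), while the other held in 16 of 16.

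*Atf3* had regions of both kinds inside and around the gene. At −10.6 kb, in the intron of its longer transcript (chr1:191193692-191194192), the percentiles were 67.1, 66.2 and 65.2 at E11.5, 91.5, 95.2 and 94.6 at E17.5, and 13.1, 0 and 20.5 in EPDCs. The pileup was 53, 51 and 43 fragments, then 148, 300 and 274, and 18 and 40 in the 2 EPDC libraries with a call. The score was higher at E17.5 than at E11.5 by 2.29 (SE 0.27, limma adjusted p = 0.000153), and EPDCs were lower than both (0.000235 and 3.77e-06). The middle base of its AP-1 site lies at −139 bases from the centre.

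The *Atf3* region at 28.9 kb downstream showed the reverse: 79.9, 79.1 and 77.8 at E11.5, 0, 36.3 and 0 at E17.5, and 76.4, 73.5 and 75.7 in EPDCs. It passed between E17.5 and both others (limma, adjusted p = 0.000447 and 0.000458). EPDCs against E11.5 gave −0.10 (SE 0.41, adjusted p = 0.886). The strongest *Atf3* region, at −33.0 kb with an AP-1 site, lies in an intron of *Atf3*, 1739 bases from the upstream *Atf3* start. It stood at 93.0, 94.0 and 94.0, then 92.1, 94.3 and 94.0, then 80.6, 77.7 and 82.7. Its EPDC scores differed by −1.01 from E11.5 (SE 0.10, limma adjusted p = 6.5e-05) and by −1.31 from E17.5 (SE 0.10, adjusted p = 1.03e-05).

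At *Maff*, the intergenic region at −16.0 kb stood at 0, 50.8 and 0 at E11.5, was called in no E17.5 library, and stood at 71.6, 79.7 and 81.5 in EPDCs. The region at 31.3 kb downstream, in an intron of *Tmem184b*, was called in no E11.5 library and stood at 64.8, 72.1 and 58.1 at E17.5 and at 0, 42.0 and 63.3 in EPDCs. The strongest, at 45.2 kb downstream in the same gene, stood at 95.6, 96.4 and 95.7, then 85.0, 84.8 and 80.9, then 94.9, 93.8 and 90.6, and differed by −1.0 between stages (SE 0.20, adjusted p = 0.00299). *Batf* had no region among the largest differences, and its strongest, at 19.0 kb downstream in its own intron, stood at 93.1, 92.6 and 95.0, then 93.9, 96.5 and 96.3, then 91.8, 90.3 and 95.0. The stage difference was 0.61 (SE 0.14, adjusted p = 0.00537).

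**Figure D3:**
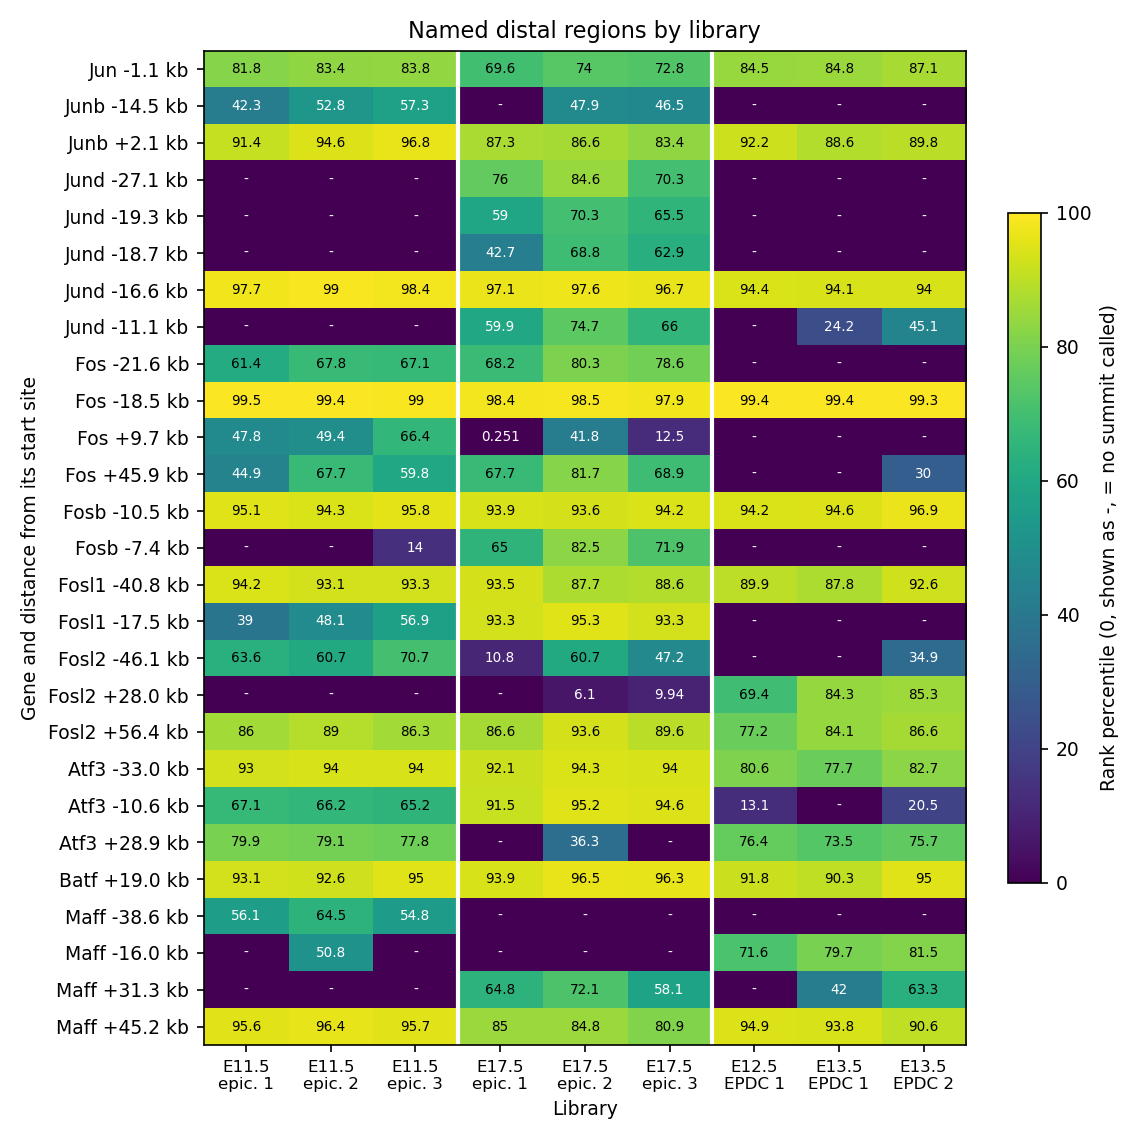
Rank percentile (colour and number, a dash where no summit was called) of 27 distal regions at AP-1 genes (rows, with their distance from the start) in the 9 libraries (columns, white lines between groups). *Jund* −27.1, −19.3 and −18.7 kb are called at E17.5 only, *Fosl2* +28.0 kb stands at 69.4 to 85.3 in EPDCs and at most 9.94 elsewhere, and the strongest region of each locus is called in all 9 libraries.

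The AP-1 site itself stood in 37 of 203 distal regions (18.2%), beside 18.3% of all 158117 distal regions. Of the regions higher at E17.5 than at E11.5, 20 of 48 (41.7%) held one, beside 30.0% of all such regions, and of those lower, 3 of 31 (9.68%), beside 15.2%. Regions lower in EPDCs than at E17.5 held it in 22 of 63 cases (34.9%, beside 29.5%), and those lower than at E11.5 in 11 of 38 (28.9%, beside 22.5%). Regions higher in EPDCs held it in 3 of 29 against E17.5 (10.3%, beside 12.6%) and in 2 of 14 against E11.5 (14.3%, beside 2319 of 17232). Of the 48, 22 were tested only through E17.5, as were 8854 of 17703 over all, and neighbouring regions are not independent. No test was made over regions.

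Other motifs were rarer. A serum response element stood in 6 of the 203 (2.96%, beside 2.6%) and a cyclic AMP response element in 3 (1.48%, beside 0.789%). Of the 16 promoter regions of members, 3 held an AP-1 site (18.8%, beside 8.11% of 26647). The median GC content of the 203 was 52.3%, against 47.3% over all distal regions. RefSeq promoters were matched for 9 of the 10 members, all but *Fosl1*. Of all 32851 such promoters, 5.2% held an AP-1 site, 1.79% the cyclic AMP response element and 1.63% the serum response element, and the *Maff* promoter printed above held the only match among the members.

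**Figure D4:**
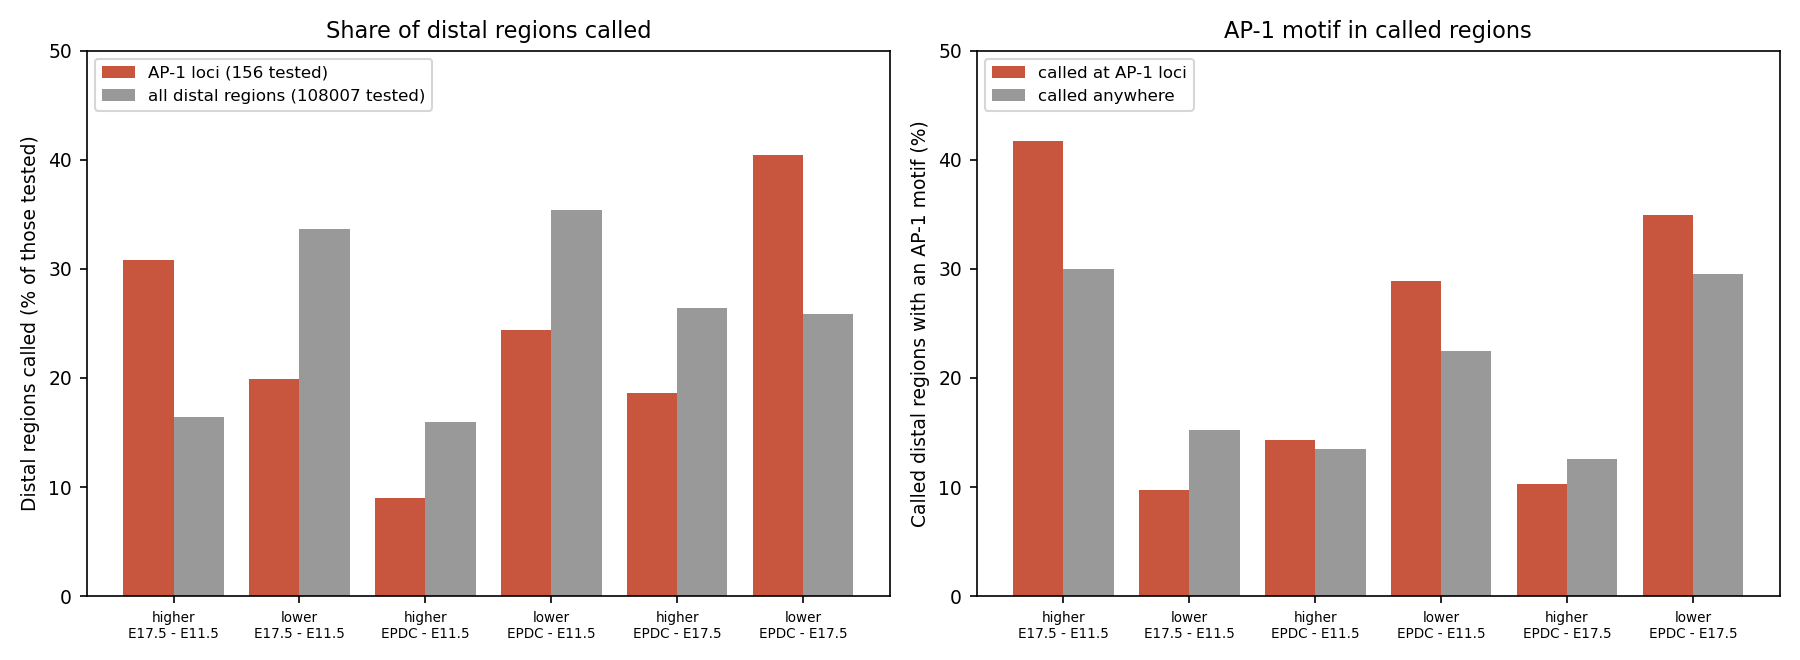
Left, share of tested distal regions called higher or lower in each comparison (y axis, percent) at the AP-1 loci (red, 156 regions) and over all distal regions (grey, 108007). Right, share of the called regions that hold an AP-1 site. At the AP-1 loci 30.8% are higher at E17.5 than at E11.5, against 16.4% of all, and 41.7% of those hold the site, against 30.0%. Of these 48 regions, 22 were tested only through E17.5, as were 8854 of 17703 over all.

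Promoters of the wider pathway were counted over whole lists, and the genes named are among those with the largest differences in each. Of 19 other bZIP partner genes 18 were tested, and 5 were higher and 0 lower at E17.5 than at E11.5, 6 and 0 in EPDCs than at E11.5, and 4 and 4 in EPDCs than at E17.5. These 18 stand beside 23.7% and 9.73%, 17.8% and 9.11%, and 14.6% and 18.1% of all promoters. On centring the counts became 0 and 1 (8.5% and 16.3% of all), 4 and 2 (11.0% and 2102 of 15513), and 5 and 1 (21.8% and 15.1%). *Jdp2*, which encodes a repressor that pairs with Jun proteins, stood at 92.6, 92.5 and 93.3 at E11.5 and at 94.5, 95.2 and 96.7 in EPDCs, with a log2 difference of 0.66 (limma, adjusted p = 0.00293). *Atf4* and *Mafg* were called in no epicardial library but stood at 92.4, 92.3 and 92.8 and at 83.8, 86.9 and 91.9 in EPDCs, and are among the 268 promoters found in the EPDC lists alone. Both were tested only through the EPDC lists, and each count of bZIP partner promoters higher in EPDCs includes them.

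Of 18 immediate early and serum response genes, 4 were higher and 0 lower at E17.5 than at E11.5 (3 and 1 on centring), 2 and 0 in EPDCs than at E11.5 (2 and 1), and 1 and 2 in EPDCs than at E17.5 (2 and 2). Of all promoters, 23.7% and 9.73%, 17.8% and 9.11%, and 14.6% and 18.1% were, and on centring 8.5% and 16.3%, 11.0% and 2102 of 15513, and 21.8% and 15.1%. *Zfp36*, which encodes an mRNA-destabilizing protein, stood at 72.2, 81.3 and 78.2 at E11.5, 89.0, 88.9 and 88.4 at E17.5 and 79.1, 79.7 and 82.5 in EPDCs, a difference between stages of 1.13 (limma, adjusted p = 0.000205). *Ier3*, an immediate early gene with a role in cell survival, stood at 90.8, 92.0 and 91.8, then 95.8, 95.6 and 96.9, then 87.9, 89.9 and 92.8 (0.92, adjusted p = 0.000541). *Dusp1*, a MAP kinase phosphatase gene, was higher by 0.69 (adjusted p = 0.00306). *Myc* was higher in EPDCs than at E17.5, at 95.3, 96.0 and 95.9 against 89.9, 89.5 and 91.2 (0.67, adjusted p = 0.00554).

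Of 7 MAP kinase genes, 3 were higher and 0 lower at E17.5 than at E11.5 (0 and 0 on centring), 2 and 0 in EPDCs than at E11.5 (1 and 0) and 1 and 0 in EPDCs than at E17.5 (2 and 0), to be read against the same shares of all promoters. *Mapk3*, which encodes ERK1, stood at 86.3, 87.4 and 90.7 at E11.5, 88.7, 89.0 and 90.4 at E17.5 and 93.3, 94.0 and 95.5 in EPDCs, a difference of 0.96 (limma, adjusted p = 0.000256) from E11.5 and 0.54 (adjusted p = 0.00995) from E17.5. The median log2 difference between stages was 0.13 for the bZIP list, 0.23 for the immediate early list and 0.41 for the MAP kinases, beside 0.20 over all promoters. At an unadjusted limma p under 0.05, the bZIP, immediate early and MAP kinase lists had 6, 6 and 4 promoters higher and 0, 0 and 0 lower at E17.5 than at E11.5, beside 33.0% and 12.1% of all. In EPDCs 8, 5 and 4 were higher and 1, 1 and 0 lower than at E11.5 (27.7% and 1945 of 15513), and 4, 2 and 1 higher and 4, 3 and 0 lower than at E17.5 (18.9% and 23.8%).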

How the data were processed

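Bulk ATAC-seq of 10 samples, deposited as 9 peak lists, was analysed. According to the methods and the submitters' notes, the authors aligned reads to mm10 and ran MACS2 (version 2.2.9.1) with a q-value cutoff of 0.01 and recorded all summits of an interval. The deposited lists give for each summit the −log10 p and −log10 q of the authors' peak caller and a fold enrichment ratio over local background, with no normalization between libraries. The technical replicates of E13.5 EPDC sample 2 share 1 list and counted as 1 library.

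Summits were extended by 250 bases on each side, and overlapping regions were thinned by score, which left 184764. Genes and sequence came from GRCm38.p6, GENCODE M21 and RefSeq. A promoter is the strongest summit within 1 kb of any annotated start of a gene, and a distal region is centred farther than that from every protein-coding start, so starts of non-coding genes were not excluded. Fragments at a summit were solved from its fold enrichment and −log10 p, which gave whole numbers within 0.02 for 100% of the summits checked, and the genome background so obtained is the only measure of depth used, since the lists hold no read totals. Replicates are separate pools of hearts as far as the labels say, and p-values measure only the spread between these libraries.

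Log2(normalized score + 1), where the score is the −log10 p over the library's sum, times 1000000, was tested in limma 3.58.1 (R 4.3.3) in 1 fit of the 9 libraries over 3 groups, with a mean-variance trend, after a filter of 3 called libraries. The scripts were tested on simulated data. Python 3.11.15 was used otherwise. Named were all 10 promoters, up to 8 distal regions per comparison with the largest log2 difference among those past an adjusted p of 0.05 and without overlap between groups, the strongest distal region of each locus, up to 3 genes per pathway list and comparison, and 3 promoters most like the most variable member. The members and lists were chosen with earlier results of these data known. Alternatives were the percentile scale, a −log10 q of at least 5, equal summit numbers, a pseudocount of 4, other filters, overlap rules, start sites and distances, each library left out, a replicate block, an exact test and, added after the data were seen, centring and the 6 epicardial libraries alone.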

Additional observations from a re-analysis of the deposited data

How the results depend on the processing

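Over the limma alternatives, the 7 promoter calls kept their direction and their side of the threshold in 95 of 125 values, and the other 30 kept the direction only. Of the 55 calls at named distal regions, 824 of 892 values were the same, 66 were past the threshold no longer and 2 reversed: the *Atf3* −33.0 kb region between stages, from 0.31 (log2) to −0.2 percentile points on the percentile scale, and the *Jun* −1.07 kb region, from −0.44 to 0.29 under interval overlap. The cause was not tested. Of EPDCs against E11.5, 1 member promoter passed (3 in the report) on the percentile scale and 1 on centring. Of EPDCs against E17.5, 2 passed (1 in the report) on the percentile scale, with a −log10 q of at least 5, with equal summit numbers, with a pseudocount of 4, at the 5′ end alone and on centring. Leaving out 1 library gave 2 to 5 promoters between stages (5 without E17.5 replicate 2), 1 to 5 in EPDCs against E11.5 (1 without E11.5 replicate 2, E11.5 replicate 3 or the E12.5 EPDC sample, 5 without E17.5 replicate 2) and 1 to 2 in EPDCs against E17.5 (2 without E11.5 replicate 1 or 3, E17.5 replicate 1 or 2, or E13.5 EPDC sample 2). For distal regions it gave 58 to 87, 42 to 61 and 64 to 92. The extremes follow as higher and lower, with shares of all in brackets. Between stages, 31 and 27 passed without E17.5 replicate 3 (10.4% and 33.0%). Without E12.5 EPDC, 53 and 34 did (18.7% and 37.1%). In EPDCs against E11.5, 7 and 35 passed without E13.5 EPDC sample 1 (9.13% and 33.4%). Without E12.5 EPDC, 22 and 39 did (14.2% and 36.2%). Against E17.5, 24 and 40 passed without E17.5 replicate 2 (26.8% and 20.7%). Without E11.5 replicate 2, 28 and 64 did (28.8% and 28.2%). Within 20 kb of a gene, 47 distal regions differed between stages (33 higher, 14 lower, of 85), 26 between EPDCs and E11.5 (10 and 16) and 54 between EPDCs and E17.5 (16 and 38), from fewer regions tested. Of all distal regions tested, 16.4% and 33.7%, 16.0% and 35.4%, and 26.4% and 25.9% were higher and lower in the same order. On centring, 1 bZIP partner promoter passed between stages, a lower one that shared 0 calls with the 5 of the report, 0 MAP kinase promoters passed there, and 1 in EPDCs against E11.5 and 2 against E17.5. Same-numbered epicardial libraries did not deviate together (correlations −0.002, 0.065 and −0.083), so the numbers do not pair the samples. With the replicate block over the 6 epicardial libraries 3 promoters passed, of which 2 were shared with the report (*Fosb* was lost). Of 136 member distal regions tested with this block, 81 passed, of which 73 were shared. At E17.5, 49 of the 136 were higher and 32 lower, beside 18468 and 37006 of all 92149 distal regions tested. The lists hold no reads, so a region not called has an unknown depth.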
